A study of Brassica carinata with 12 samples.

Results

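A group of 187 genes was read at 10 CPM or more in every anther library of synthetic Brassica carinata at meiosis and at 0.5 CPM or less in every library at mitosis, in haploid and tetraploid alike. CPM is the count of a gene scaled to the total count of its library. The 187 genes are those that met both thresholds among 84112 genes placed on a B or C chromosome other than C03, in a table of 97149 genes. All 12 libraries took part in this choice, so the fall between the stages is what defines the group. It is given below as a description, with no test.

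Brassica carinata is an allotetraploid mustard that joins a C genome from B. oleracea with a B genome from B. nigra. The labels describe the haploid form (BC) as the offspring of B. oleracea var. alboglabra as mother and B. nigra as father. The tetraploid form (BBCC) had the same parents and went through ovule culture and colchicine, an agent that doubles the chromosome set. Anthers were sampled at meiosis, labelled sporogenesis, and at mitosis, labelled gametogenesis, with 3 libraries for each of the 4 groups. The labels name the tissue as anther with pollen, and the extraction protocol speaks of floral buds. Whether the 3 libraries of a group represent different plants is not stated, so the spread behind each p-value may be technical only.

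In an anther, pollen mother cells enter meiosis inside a ring of somatic layers, of which the innermost, the tapetum, feeds them and supplies enzymes and wall material. After meiosis the tetrads are released as microspores, which then divide by mitosis to form the vegetative and the generative cell, while the tapetum breaks down. Many genes used by meiocytes or by the young tapetum are known to be switched off in later anthers of flowering plants. In a haploid with 1 B and 1 C set, chromosomes have no homologous partner at meiosis. The files give gene IDs without names or sequences. Roles of the 187 genes, and anther markers, are therefore not described here, and chromosomes are taken from the IDs. In whole anthers, fewer cells of a type and less RNA per cell cannot be told apart.

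Together the 187 genes took a small part of the RNA at meiosis and almost none at mitosis. In the haploid at meiosis they held 0.639%, 0.634% and 0.639% of all counts in the 3 libraries. In the tetraploid at meiosis they held 0.682%, 0.685% and 0.686%. At mitosis the shares were 0.00265%, 0.00297% and 0.00287% in the haploid and 0.00123%, 0.00114% and 0.00112% in the tetraploid. The 2 forms did not overlap at either stage on counts, while the gap between the stages is set by the rule. On the FPKM scale the forms overlapped at meiosis, at 0.619% to 0.622% in the haploid and 0.618% to 0.630% in the tetraploid. The mean share of counts was 225-fold lower at mitosis than at meiosis in the haploid and 587-fold lower in the tetraploid. In reads, the whole group had 102728 to 105656 per haploid library at meiosis and 438 to 477 at mitosis. The tetraploid libraries had 108251 to 114989 at meiosis and 182 to 200 at mitosis.

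**Figure D1:**
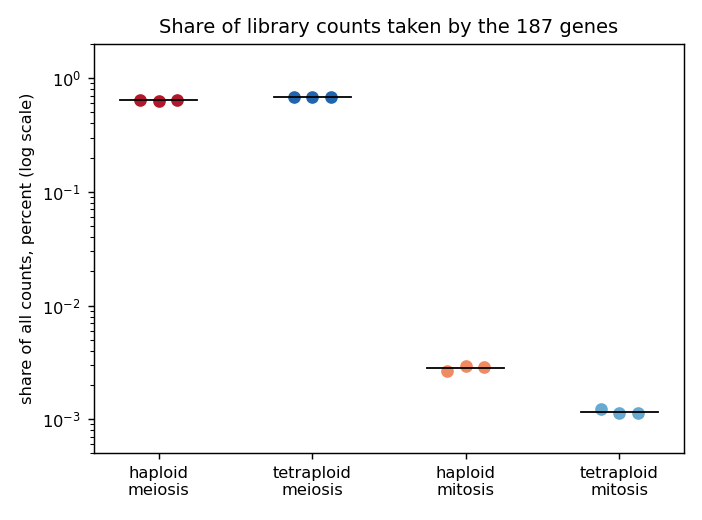
Share of all counts taken by the 187 genes (percent, log axis) in each of the 12 libraries, with the mean of each group of 3 as a line. The meiosis libraries lie between 0.634% and 0.686% and the mitosis libraries between 0.00112% and 0.00297%, with the haploid above the tetraploid at mitosis.

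The group was not carried by a few genes. The single highest gene supplied 2.67% of the group's CPM at meiosis, the top 10 supplied 16.9% and the top 50 supplied 53.9%. Mean CPM over the 6 meiosis libraries ran from 11.2 to 176, with a median of 25.3. The 14517 placed genes outside C03 that reached 10 CPM in every meiosis library had a median of 27.6 and a highest value of 22867 CPM, and the 187 genes are 1.29% of them. On the deposited FPKM scale, which is per kilobase and allows levels to be compared between genes, the group's mean level at meiosis ran from 3.40 to 284 with a median of 26.8. The median of the 14517 genes was 23.7 FPKM. Within a group of 3 libraries at meiosis the coefficient of variation of CPM had medians over genes of 6.78% (haploid) and 5.53% (tetraploid), and reached 31.3% and 62.7% in single genes.

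**Figure D2:**
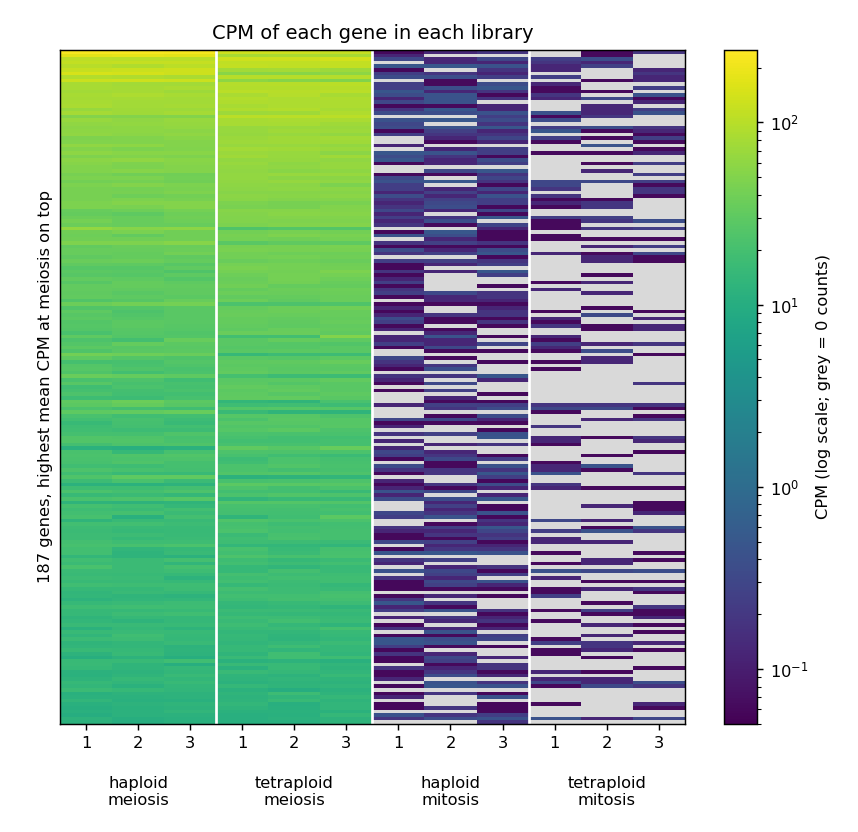
CPM of each of the 187 genes (rows, ordered by mean CPM at meiosis) in each of the 12 libraries (columns, grouped by form and stage), on a log colour scale with 0 counts in grey. The meiosis columns hold 10 CPM or more throughout, and grey cells are more frequent in the tetraploid mitosis columns, with 106 to 113 genes at 0 counts per library, than in the haploid ones, with 47 to 50.

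The 2 genes with the highest mean CPM at meiosis stood higher in the haploid. BcaC06g31996, on C06, was at 228, 228 and 221 CPM in haploid meiosis libraries and at 129, 132 and 120 CPM in tetraploid ones. At mitosis it was at 0.0606, 0.125 and 0.181 CPM in haploid libraries and at 0, 0.0628 and 0.184 CPM in tetraploid ones, which are 0 to 3 reads per library. The meiosis groups did not overlap, and at mitosis both forms were within 3 reads of 0. BcaB07g32729, on B07, was at 173, 184 and 176 CPM in haploid meiosis libraries and at 83.2, 85.6 and 81.5 CPM in tetraploid ones. Its mitosis libraries held 2, 0 and 0 reads in the haploid and 0, 1 and 0 in the tetraploid. On the FPKM scale BcaB07g32729 had the highest level of the group at meiosis, 284 FPKM, against 172 for BcaC06g31996.

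Of the 187 genes, 6 had 0 counts in all 6 mitosis libraries. A count of 0 allows up to 3 reads, or 0.181 to 0.189 CPM per mitosis library, and such limits cover counting error only. The 2 of these with the highest meiosis level were BcaC01g03010 on C01 and BcaB07g30105 on B07. BcaC01g03010 was at 49.4, 45.9 and 52.3 CPM in haploid libraries and 62.7, 60.7 and 65.8 CPM in tetraploid ones at meiosis, so it was at least 268-fold lower at mitosis in the haploid and at least 339-fold lower in the tetraploid, against a floor of 3 counts per library. BcaB07g30105 was at 23.8, 18.7 and 22.3 CPM in haploid libraries and 31.9, 28.8 and 31.1 CPM in tetraploid ones, at least 118-fold and at least 165-fold lower at mitosis. Both genes were lower in the haploid at meiosis, with no overlap between the forms.

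Over the group, the size of the fall could be given as a ratio for 135 genes in the haploid and 58 in the tetraploid, those with more than 3 reads at mitosis. The ratio of mean CPM at meiosis to that at mitosis had a median of 158 in the haploid (33.9 to 1849) and of 256 in the tetraploid (40.8 to 1542). These are different genes in part, so the medians are not a comparison of the forms. Lower bounds for the genes with 0 reads ran from 65.2 to 268 over 9 genes in the haploid and from 60.5 to 425 over 59 in the tetraploid. The remaining genes had 1 to 3 reads.

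The thresholds cut through a continuous range. The gene nearest the meiosis limit from inside had a lowest meiosis library of 10.02 CPM, and the nearest from outside had 9.88 CPM. At mitosis the nearest gene inside had a highest library of 0.499 CPM and the nearest outside had 0.503 CPM. The same 2 thresholds were met by 7 genes of C03 and 14 unplaced genes, which the rule leaves out. A limit of 0.25 CPM at mitosis left 106 genes and a limit of 1 CPM gave 297, both tried after the data were seen.

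The group was drawn from both subgenomes and from all 16 chromosomes that could supply it. B chromosomes supplied 102 genes, 1.56% of their 6521 genes at 10 CPM or more at meiosis, and C chromosomes supplied 85, 1.06% of 7996. Single chromosomes supplied between 5 genes (C08) and 18 (B02 and B04). As a share of genes at that level this ran from 0.620% on C08 and 0.725% on C01 to 1.84% on B02 and 2.24% on B04. On the B side, B03 was low at 0.819%. The genes were mostly scattered: 169 had no group member as the next gene ID, and 18 formed 9 pairs of consecutive IDs on 8 chromosomes, with no longer run. In 8 of the 9 pairs both genes leaned to the same form at meiosis, which was not tested. Of all 187 genes, 138 had a negative fitted log2 fold change at meiosis, so a shared sign is frequent in any pair. Neighbouring genes can be near-identical copies, between which reads may be split, and the same holds for B and C copies of a gene. The counting of such reads was not given in the sources used here.

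Gene length was taken as the value that links counts and FPKM at meiosis. It had a median of 1075 bases over the 187 genes, with an interquartile range of 764 to 1436 and a full range of 129 to 4530. The genes at 10 CPM or more at meiosis had a median of 1264 bases and an interquartile range of 781 to 1905. Their full range was 26.6 to 917505 over the 14513 with a value, so it is not a true length in every gene. This is an estimate from the deposited tables and was not tested.

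The first comparison that the rule did not use asked whether the 2 forms differed in these genes at meiosis. Most of the called genes were modestly lower in the haploid and fewer were higher, a lean shared by genes at the same meiosis level. Of the 187 genes, 21 were higher in the haploid and 72 lower at an adjusted p under 0.05 (quasi-likelihood test of edgeR, Benjamini-Hochberg adjustment over 51860 genes), and 94 were not called. Over all genes tested 19.5% were called higher and 18.8% lower. Among the 14517 placed genes outside C03 at 10 CPM or more at meiosis, which are read as deeply, 22.2% were higher and 35.8% lower. Read against genes at its own level in this fit, the group's 38.5% lower is near the background, and its 11.2% higher is below it. These differences were not tested. A fit on the 6 meiosis libraries alone called 24 of the 187 genes higher and 87 lower. It called 3412 of the 14517 genes higher and 5320 lower, so the group's lower share stood further above the background there. In the fit over all 12 libraries the median log2 fold change of haploid against tetraploid was -0.21 (interquartile range -0.37 to 0.02). There 138 of the 187 values were negative. The median was 0.00 over all genes tested and -0.08 over the 14517 genes. In 31 genes all 3 haploid libraries lay above all 3 tetraploid ones (16.6%, against 25.3% of the 14517) and in 102 below (54.5%, against 41%).

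**Figure D3:**
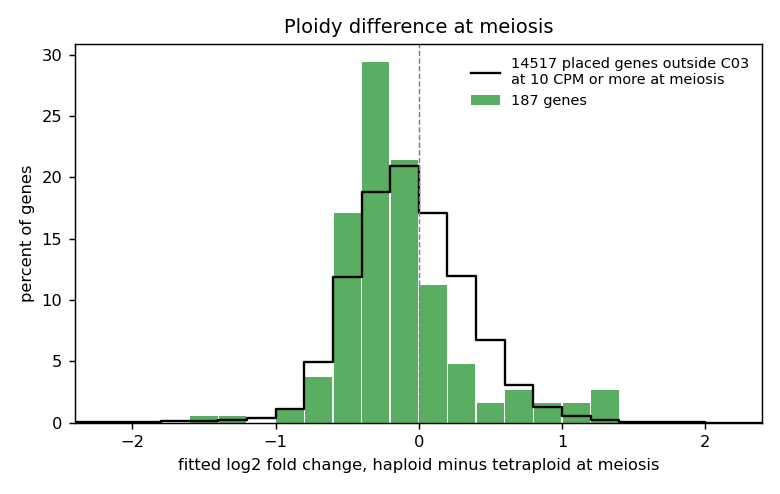
Fitted log2 fold change of haploid against tetraploid at meiosis for the 187 genes (bars, percent of genes per bin) and for 14517 placed genes outside C03 at 10 CPM or more at meiosis (line). The bars centre near the median of -0.21, and the right side extends to 1.34.

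Changes of at least 2-fold were fewer and mostly upward. At this size 8 genes were higher in the haploid, 4.28% of the group, and 2 were lower, or 1.07%. The background was 1.08% higher and 1.01% lower among the 14517 genes, and 5.38% and 4.08% among all genes tested. The 21 genes called higher summed to 1279 CPM in haploid libraries and 669 CPM in tetraploid ones. The 72 called lower summed to 2583 and 3503 CPM, and the 94 not called to 2511 and 2672 CPM. These sums follow from how the 3 classes were made and are a description. On the FPKM scale the summed shares of the forms overlapped, at 0.619% to 0.622% in the haploid and 0.618% to 0.630% in the tetraploid.

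The 2 largest increases were on C chromosomes. BcaC02g10057 was at 148, 145 and 132 CPM in haploid meiosis libraries and 55.7, 54.1 and 59.0 CPM in tetraploid ones, so its groups stood far apart (log2 fold change 1.34, SE 0.07, adjusted p = 2.49e-17, edgeR). At mitosis it had 4, 3 and 2 reads in the haploid and 0, 0 and 3 in the tetraploid. BcaC05g27100 was at 126, 129 and 125 CPM in haploid libraries and 58.6, 53.4 and 49.1 CPM in tetraploid ones, again with no overlap (1.25, SE 0.07, adjusted p = 2.12e-16, edgeR). It had 0, 1 and 0 reads in the haploid at mitosis and 0, 1 and 2 in the tetraploid. Both genes were therefore more abundant in the haploid before the fall and within a few reads of 0 in both forms after it. BcaB07g32729 and BcaC06g31996, described above, were called in the same direction (2.14-fold, adjusted p = 1.14e-16, and 1.78-fold, adjusted p = 1.59e-14, edgeR).

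The 2 largest decreases were on B chromosomes. BcaB02g10474 was at 11.6, 10.6 and 12.005 CPM in haploid meiosis libraries and 31.5, 27.4 and 34.2 CPM in tetraploid ones (log2 fold change -1.44, SE 0.13, adjusted p = 1.38e-10, edgeR). It had 2, 0 and 0 reads in the haploid at mitosis and 0 in the tetraploid. BcaB04g19370 was at 11.9, 11.7 and 12.1 CPM in haploid libraries and 29.1, 28.4 and 27.5 CPM in tetraploid ones (-1.24, SE 0.14, adjusted p = 4.06e-09, edgeR). It kept 1, 3 and 6 reads in the haploid at mitosis and 3, 0 and 0 in the tetraploid. In the haploid both genes lay near the meiosis threshold of 10 CPM, so genes with a lower haploid level than this could not enter the group. The threshold held for the tetraploid too, so genes below it there were likewise kept out.

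**Figure D4:**
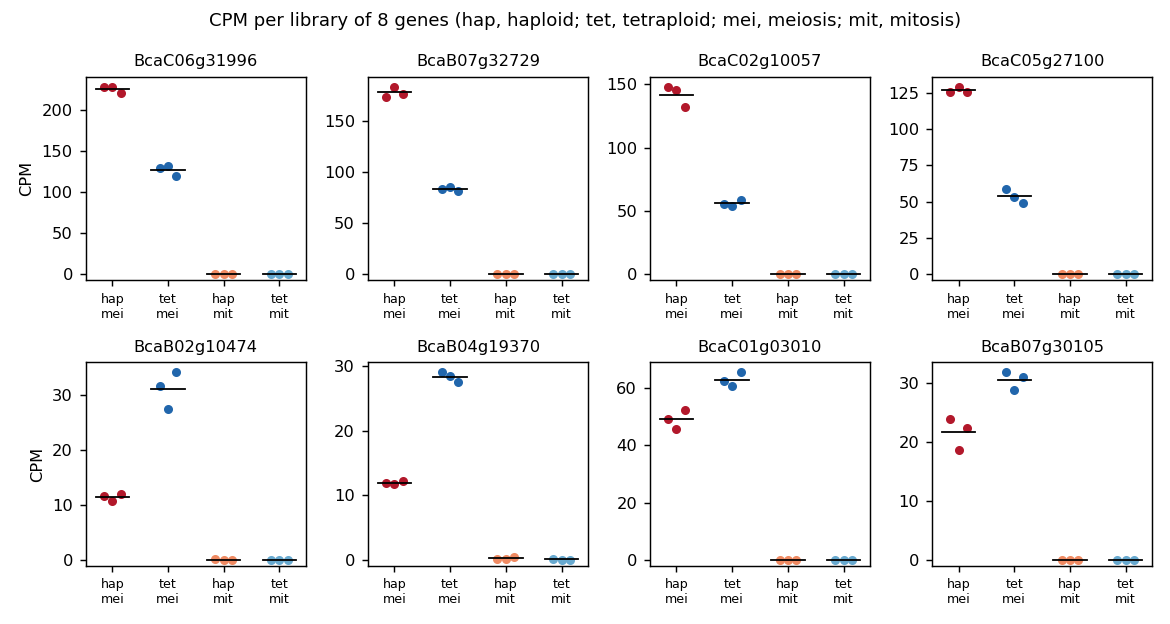
CPM in each of the 12 libraries (points, with group means as lines) for 8 genes: the 2 with the highest mean CPM, the 2 largest increases and 2 largest decreases in the haploid at meiosis, and 2 genes with 0 counts at mitosis. Every mitosis point lies within 0.362 CPM of 0, and the haploid and tetraploid meiosis points do not overlap in any panel. For the increases and decreases this was a condition of choice, which all 93 genes called at meiosis met.

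By subgenome the calls at meiosis were alike in share. Of the 102 B genes 11 were called as higher and 40 as lower in the haploid, with a median log2 fold change of -0.21, and of the 85 C genes 10 were higher and 32 lower, with a median of -0.21. By level, 25 of the 37 genes with a mean of 40 to 80 CPM were called lower and 1 higher, while among the 16 genes above 80 CPM 6 were lower and 5 higher. Among the 69 genes at 20 to 40 CPM, 32 were lower and 9 higher, and among the 65 genes under 20 CPM, 9 were lower and 6 higher. By chromosome, B01 had 3 higher and 1 lower, B02 had 4 of each, and B03, B05, B06, C07, C08 and C09 had 0 called higher and between 2 and 6 called lower. These splits are descriptions, and differences between them were not tested. The shares called among all genes of the same level, subgenome or chromosome are not given, so the splits are not traits of the group.

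The few reads left at mitosis were set side by side in the forms, as a description. They were more frequent in the haploid. Summed over 3 libraries the group had 1390 haploid and 565 tetraploid reads, and the mean share of counts was 2.43 times as high in the haploid. Of the 187 genes, 146 had a higher mean CPM in the haploid, 35 in the tetraploid and 6 were at 0 in both. A gene had a median of 7 reads over the 3 haploid libraries and 2 over the 3 tetraploid ones, with highest sums of 23 and 18. In 59 genes the tetraploid had 0 reads in all 3 libraries, while the haploid had 0 in 9. The rule holds each library at or under 0.5 CPM, which limits what can differ here. Without that limit on the other form, 306 genes met the meiosis threshold and were low in the tetraploid, and 218 were low in the haploid. The 187 genes are 61.1% of the former and 85.8% of the latter.

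**Figure D5:**
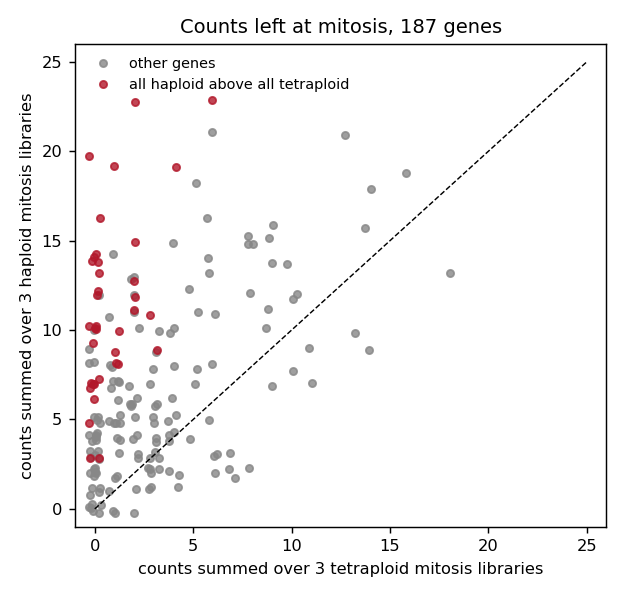
Reads of each of the 187 genes at mitosis, summed over the 3 tetraploid libraries (x axis) and the 3 haploid libraries (y axis), slightly spread to separate points, with equality as a dashed line. Most points lie above the line, and red marks the 37 genes in which all 3 haploid libraries were above all 3 tetraploid ones in CPM.

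The leftover reads could be set beside those of other genes under the same limit. The other 14981 placed genes outside C03 at 0.5 CPM or less in every mitosis library, with at least 1 read there, summed to 1031 CPM in haploid libraries and 1211 CPM in tetraploid ones, a ratio of 0.851. Of those whose forms differed, 42.9% were higher in the haploid, against 80.7% in the 187 genes. The ratio changed with the level at meiosis. It was 0.810 for 14151 genes with a mean under 1 CPM at meiosis, 1.39 for 688 genes at 1 to 5 CPM and 1.87 for 142 genes at 5 CPM or more. In 37 of the 187 genes (19.8%) all 3 haploid mitosis libraries were above all 3 tetraploid ones and in 2 (1.07%) below. The other 14981 genes had 3.25% above and 7.86% below. Over the 14517 genes at the group's meiosis level, which have no cap at mitosis, these shares were 28.5% and 33.5%. The 187 genes summed to 28.3 CPM in haploid libraries, so they held more reads per gene than the 14981. With fewer reads, 3 libraries lie apart from 3 others less easily, so these shares are not like for like. Of the 142 genes at 5 CPM or more at meiosis, 71.8% of those whose forms differed were higher in the haploid. Their share with libraries apart is not given.

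The fit over all 12 libraries made calls at mitosis too, but they are no support for a difference between the forms. All 187 genes entered it through their meiosis libraries, since the same filter on the 6 mitosis libraries alone kept 0 of them, and the rule had capped their mitosis values. As a record, 56 genes were called higher in haploid mitosis libraries and 0 lower (edgeR, adjusted p under 0.05), with 70 and 0 at an unadjusted p under 0.05 and 39 and 0 by DESeq2. Over all genes tested 23.3% were called higher and 24.4% lower, and over the 14517 genes at the group's meiosis level 29.8% and 28.5%. By DESeq2, 10027 genes were higher and 12771 lower of 75021. With the 6 mitosis libraries alone and no filter, a setting added after the data were seen, 19 genes were called higher and 0 lower. That setting tested 181 of the 187 genes, and over its 71018 genes 12085 were higher and 13313 lower. With FPKM and limma-trend the calls were 21 higher and 1 lower at a pseudocount of 1, and 58 higher and 3 lower at 0.1. Over the 51109 genes of these fits, 10799 were higher and 13408 lower at 1, and 10586 and 12936 at 0.1.

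Single genes show how few reads are involved. The 2 given here had the largest called differences at mitosis, so their mitosis values are a record and no support. BcaC04g22301, on C04, had 6, 6 and 8 reads in the haploid at mitosis (0.363, 0.375 and 0.482 CPM) and 0 in each tetraploid library. A count of 0 allows up to 3 reads. At meiosis it was at 21.6, 23.2 and 26.4 CPM in haploid libraries and 13.6, 15.5 and 16.2 CPM in tetraploid ones, with no overlap. BcaC07g37806, on C07, had 8, 2 and 6 reads in the haploid at mitosis and 0 in each tetraploid library. At meiosis it was at 57.2, 59.8 and 54.5 CPM in haploid libraries and 62.7, 65.9 and 60.9 CPM in tetraploid ones, a difference that was not called (adjusted p = 0.157, edgeR).

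The same 1390 haploid and 565 tetraploid reads, capped by the rule, were split by chromosome, subgenome, level and call at meiosis. The splits are a description, and their agreement is no repeated support for a difference between the forms. Reads left at mitosis were more numerous in the haploid on each of the 16 chromosomes, from 89 against 60 on B04 to 110 against 16 on C02. They were so in both subgenomes, at 703 against 313 for B genes and 687 against 252 for C genes, and at every meiosis level, for example 161 against 73 for the 16 genes above 80 CPM. They were also so whichever way the gene leaned at meiosis, at 112 against 38 for the 21 genes higher in the haploid and 533 against 231 for the 72 genes lower there.

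An interaction of form and stage in the same fit rests on the same capped mitosis values and is no separate result. It was called as more positive at mitosis for 52 genes and more negative for 1 (edgeR, adjusted p under 0.05), and 51 of the 52 were among the 56 above. Over all genes tested these shares were 15.6% and 14.9%, and over the 14517 genes 28.7% and 18%. BcaC05g24319, on C05, was at 29.1, 28.0 and 23.9 CPM in haploid meiosis libraries and 42.5, 40.6 and 46.6 CPM in tetraploid ones. At mitosis it had 3, 2 and 8 reads in the haploid and 0 in the tetraploid, so it was 103-fold lower than at meiosis in the haploid and at least 233-fold lower in the tetraploid. The 1 gene with the opposite sign, BcaB07g31093 on B07, was at 62.8, 53.7 and 57.3 CPM in haploid meiosis libraries and 23.97, 25.9 and 25.7 CPM in tetraploid ones. It had 0, 0 and 2 reads in the haploid at mitosis and 1, 3 and 4 in the tetraploid, and its forms overlapped there.

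Library depth was similar throughout. Total counts ranged from 15769687 to 16793767 per library, and 1 read was worth 0.0595 to 0.0634 CPM. Libraries of a group correlated across genes on log2 CPM with Pearson's r of 0.976 to 0.982, and their counts differed by a mean chi-square of 2.52 to 3.08, more than sampling noise gives, so none was counted as a second deposit of another. TMM factors were 1.06 to 1.07 at meiosis and 0.922 to 0.952 at mitosis.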

How the data were processed

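Whole-number counts per gene, unnormalised, make up one deposited table of 12 libraries. The other deposited table gives FPKM values by the authors for the same genes. The submitters' processing notes name the tools HISAT2 (2.1.0), TopHat2, featureCounts (2.0.1) and Bowtie2 (2.2.3), with neither role nor order. The tool behind the FPKM values, the genome build, the annotation and the strand setting were not given in the sources used here.

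CPM were counts over library totals. The count test was that of edgeR 4.0.16 in R 4.3.3 (TMM factors, default filter on low counts, 1 model over 12 libraries with a mean per group, two-sided quasi-likelihood test, Benjamini-Hochberg adjustment over 51860 genes). All 187 genes passed the filter. Standard errors are the log2 fold change over the square root of F. The fit was first tested on simulated counts with the real gene means, library totals and common dispersion, in which known genes were changed by known folds in haploid libraries of 1 stage. The members, rules and lists were chosen with earlier results of these data known. Named genes are the 2 highest at meiosis, the 2 highest of those with 0 counts at mitosis, and, per contrast, up to 2 of the largest called changes each way. For the contrast at meiosis, the libraries of the 2 forms also had to lie apart. Lists of named anther genes were not run, since IDs carry no names. Alternatives used DESeq2 1.42.0, limma 3.58.1 on log2(FPKM + 1) and log2(FPKM + 0.1), with at least 1 FPKM in 3 libraries, other scalings and filters, a replicate block, and each library left out.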

Additional observations from a re-analysis of the deposited data

Results flagged for a closer look

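In 3 genes described above, the fitted ploidy difference at mitosis stood apart from that at meiosis in the interaction of the fit. All 3 passed the filter only through their meiosis libraries and had mitosis values capped by the rule, so the values are a record and support no difference between the stages. For BcaC05g24319 the fitted log2 difference at mitosis minus that at meiosis was 5.94, and for BcaC07g37806 it was 5.70. Both had 0 tetraploid reads at mitosis, so these sizes depend on the prior count of the fit and are no bounds. For BcaB07g31093 it was -3.02, which rests on 2 haploid and 8 tetraploid reads at mitosis, and its call was lost without tetraploid mitosis replicate 3 (adjusted p = 0.0797, edgeR). Groups of 3 libraries were not tested for single outlying libraries.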

How the results depend on the processing

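The number of genes under the rule was 155 on TMM-scaled libraries and 164 on counts of placed genes outside C03, and 188 to 203 with 1 library left out. A meiosis minimum of 20 CPM gave 88, and mitosis limits of 0.25 and 1 CPM gave 106 and 297, all added after the data were seen. At 0.5 FPKM or less in every mitosis library stood 159. The share of counts at meiosis was 0.637% (haploid) and 0.684% (tetraploid), 0.721% and 0.759% of placed counts outside C03, and 0.621% and 0.623% of summed FPKM, so the form difference shrank to within the spread in the last.

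At meiosis a 2-fold minimum left 8 genes higher and 2 lower. FPKM with limma-trend and a pseudocount of 0.1 gave 12 and 11. Of 14491 genes at 10 CPM or more at meiosis, that setting called 2867 higher and 4386 lower. The lean to lower calls was thus lost in the group but not in genes at its level, and the cause was not tested. The median log2 fold change over the 187 genes was -0.21 in that setting, as in the main fit. Without 1 library the counts were 17 to 21 higher and 60 to 75 lower, and of the 14517 genes 2906 to 3275 and 4629 to 5208. At mitosis 41 to 57 were higher and 0 to 3 lower without 1 library, the 3 without haploid mitosis replicate 3. Of the 14517 genes, 3912 to 4376 were higher and 3809 to 4101 lower at mitosis without 1 library. FPKM gave 21 higher and 1 lower (pseudocount 1), 17 higher and 0 lower (pseudocount 1, no filter) and 58 higher and 3 lower (pseudocount 0.1). Over all 76943 genes of the FPKM fit without the filter, 10695 were higher and 15224 lower. The 6 mitosis libraries without a filter gave 19 higher. The planned fit on those 6 libraries gave no value, since its filter removed all 187 genes. More negative interactions numbered 16 (pseudocount 1, with and without the filter) and 5 (0.1). Among genes at 10 CPM or more at meiosis they numbered 2766 of 14491 (pseudocount 1), 2628 of 14514 (no filter) and 2700 of 14491 (0.1). Without 1 library they numbered 0 to 2 in the group, 0 without tetraploid mitosis replicate 3 and 2 without haploid mitosis replicate 3. More positive ones numbered 42 to 53 without 1 library. Of the 14517 genes, 3775 to 4014 were more positive and 2395 to 2557 more negative there. The interaction of BcaC04g22301 reversed with FPKM and a pseudocount of 1 (-0.25).

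With the replicate block, 21 genes were higher and 72 lower at meiosis, 55 higher at mitosis, and 52 and 1 in the interaction. Of the 14517 genes, 3171 and 5131 were so called at meiosis, 4268 and 4094 at mitosis, and 4097 and 2546 in the interaction. Libraries of the same number did not deviate together (r of -0.0186 to 0.0147 over 18 pairs). For different numbers r was -0.0226 to 0.0353 over 36 pairs. The main fit therefore did not pair libraries by number, though r near 0 cannot show whether a plant or day was shared. Depth limits the mitosis values, where 1 read is about 0.06 CPM.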

Other observations

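The 2 deposited tables differed at the low end, and not only there. Among the 14517 genes at 10 CPM or more in every meiosis library, the lowest mean FPKM at meiosis was 0. Over the 187 genes and 6 mitosis libraries there were 1122 values, of which 476 were 0 counts. FPKM was above 0 in 33 of these, up to 0.771 FPKM, and 0 in 4 values with at least 1 count. In 28 genes a mitosis library exceeded 0.5 FPKM, and in 3 it reached 1 FPKM.

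Among the 9 pairs of neighbouring IDs, a pair on B01 stood out after its values were seen. Its genes had log2 ratios of haploid to tetraploid CPM at meiosis of 0.80 and 0.73, at mean levels of 31.7 and 101 CPM. The pair with the widest split, on B04, was at -0.18 and -0.99.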
